A study of Mus musculus with 9 samples.

Results

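Bladders carrying a sham-treated MB49 tumour were compared with healthy bladders that had also received PBS. The comparison uses 4 of the 9 arrays of the series, chosen by their labelled group: tumour PBS and healthy PBS, each with 1 array in experiment 1 and 1 in experiment 2. All 4 bladders were labelled as female C57BL/6J mice. MB49 is a mouse bladder carcinoma line. Its cells were instilled into the bladder on day 0 after a coating with poly-L-lysine, the mice then received PBS in place of a drug, and the bladders were taken on day 12. The healthy mice received PBS and no tumour cells, and their labels give neither a sacrifice time nor a poly-L-lysine step, so the instillation procedure and the tumour cannot be told apart. MB49 is 1 transplanted line, and whole frozen bladders were extracted, so tumour and host RNA were measured together.

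The healthy bladder is lined by urothelium, a stratified epithelium whose surface umbrella cells carry plaques of uroplakins and are sealed by tight junctions. Below it lie a fibroblast-rich lamina propria and the detrusor, a coat of smooth muscle that responds to nerve transmitters. MB49 cells grow in the lumen and wall of the bladder as an aggressive carcinoma and are widely used because an immunocompetent host can respond to them.

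Values are RMA intensities on the log2 scale, so that a difference of 1 is a 2-fold difference. Each probe set is compared with itself across arrays, and pairs of values are given in the order experiment 1, experiment 2. The difference in each experiment is its tumour array minus its healthy array, and a mean difference is the average of both. A gene was called at an adjusted p under 0.05 (limma with the experiment as a block, Benjamini-Hochberg over 11969 genes). With 2 arrays in a group their number limits the precision, and whether each array is a separate animal is not in the labels, so p-values reflect no more than how far these arrays spread, which may be technical. limma moderates each SE and p with the spread of all genes, so they are not measures of 1 gene alone. The smallest adjusted p was 0.0024, and many genes share it. The array medians were 4.43 in both arrays of experiment 1, and 4.24 (healthy) and 4.21 (tumour) in experiment 2.

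Most of the transcriptome above background differed. Of 11969 genes, 3428 (28.6%) were called higher and 3424 (28.6%) lower in the tumour bladders, 57.2% in either direction, and the median difference over all of them was -0.01. The typical difference was small, with a median size of 0.53 and a median SE of 0.10. A stricter description counts genes at least 2-fold changed the same way in both experiments, which held for 1463 higher (12.2%) and 1589 lower genes (13.3%), 25.5% in all. The tumour arrays lay outside the range of the healthy arrays for 53.0% of genes. Without the block 3172 genes (26.5%) were called. The counts of listed genes below are to be read against these shares. Where both healthy arrays of a member lay under the filter value of 4.16, it was tested because other arrays were higher, so counts over the members above the filter are descriptions. For the gene lists, the number of such members is given where at least 2 of them were called higher.

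The sizes of change were not alike in both directions. At least 16-fold in both experiments, 73 genes were higher and 22 lower. At least 32-fold, 28 were higher and 0 lower. Genes were at least 2-fold different in 3582 cases in experiment 1 and 3495 in experiment 2. The difference of a gene varied between the experiments by a median of 0.18 and at the 95th percentile by 0.72, and 1279 genes had opposite signs, of which 0 were 2-fold or more in both experiments.

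**Figure D1:**
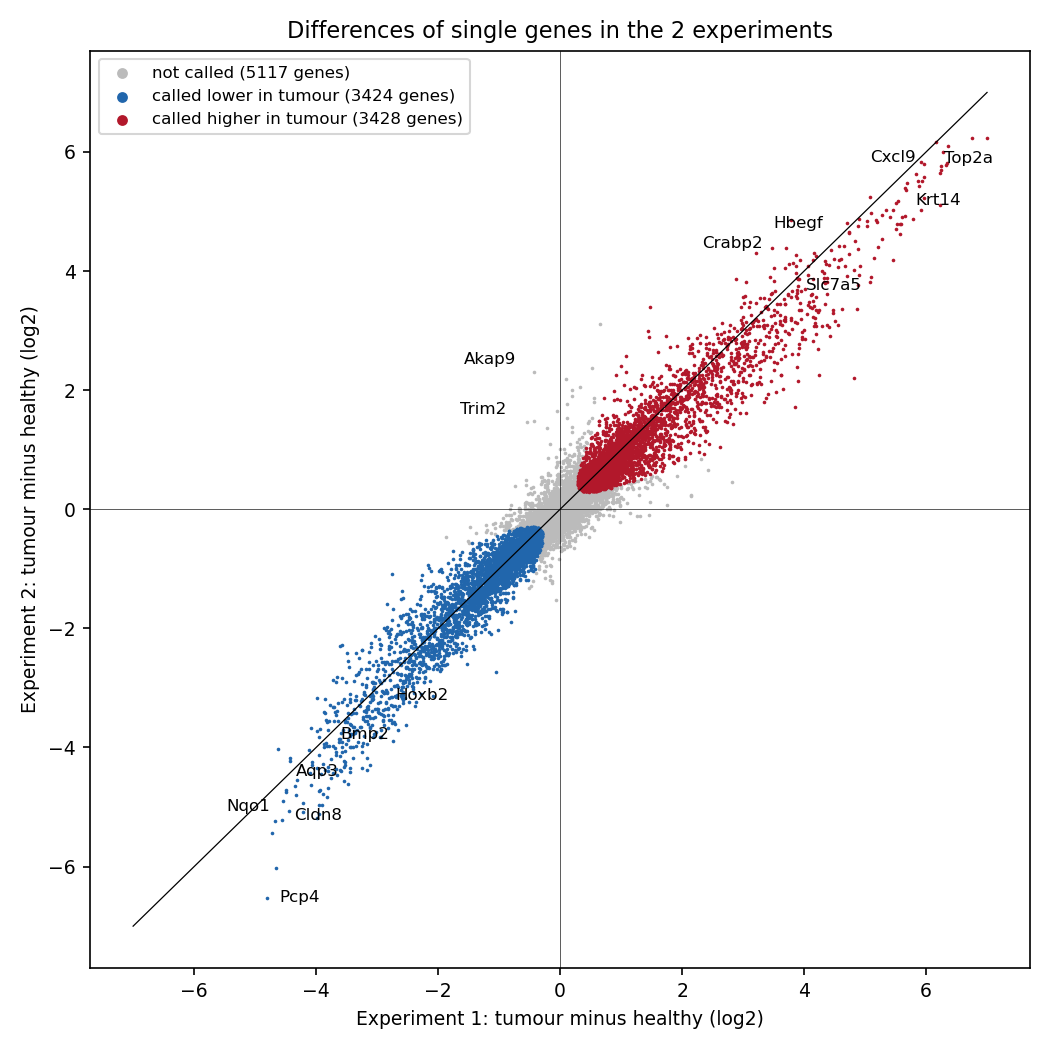
Tumour minus healthy difference (log2) of each of 11969 genes in experiment 1 (horizontal) and experiment 2 (vertical), with the line of equal differences. Points called higher (3428 genes, red) and lower (3424 genes, blue) lie along the line, and Akap9 and Trim2 are labelled as genes whose differences had opposite signs.

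The 41 gene lists below were read by their counts and their median, and the plot of list medians shows each list in both experiments. The largest list medians in either experiment belonged to the spindle and kinetochore list on the higher side and to the tight junction and detoxification lists on the lower side. For 3 lists the sign of the median over the measured members differed between the experiments: hemidesmosome and laminin-332 (-0.07 and 0.11), mucosal defence (0.01 and -0.03), and nerve and glia (0.06 and -0.19).

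**Figure D2:**
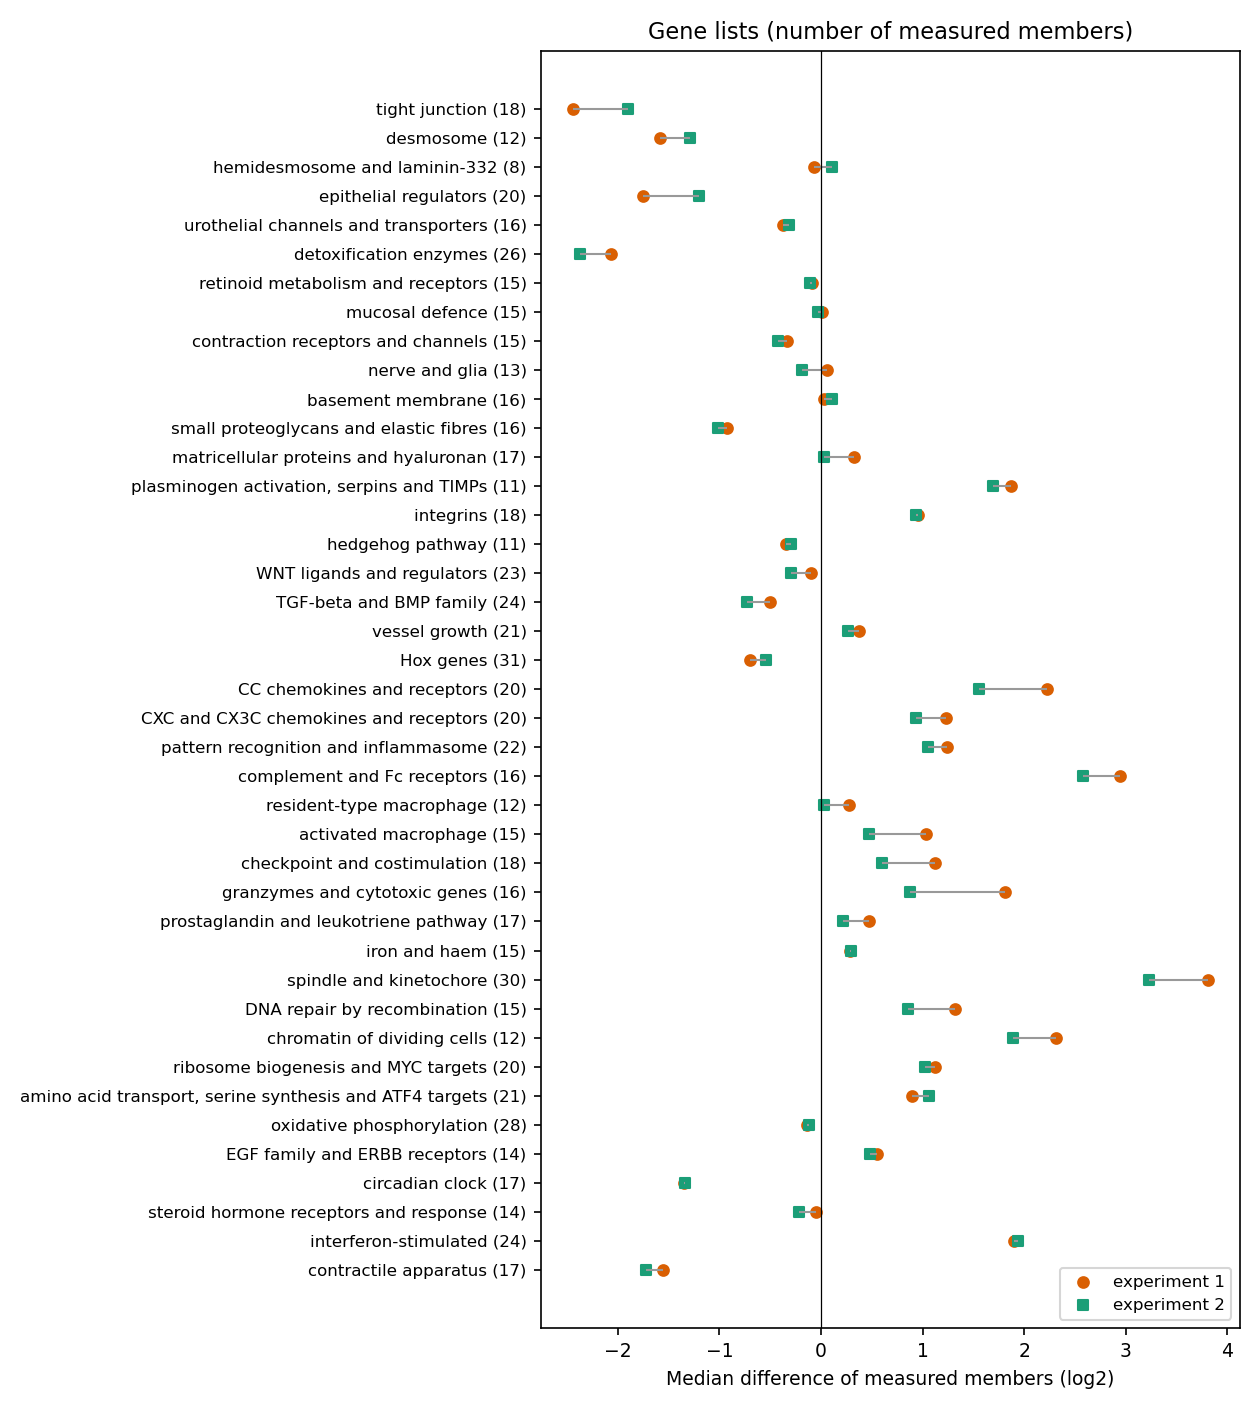
Median difference (tumour minus healthy, log2) over all measured members of each of 41 gene lists, in experiment 1 (circles) and experiment 2 (squares). The spindle and kinetochore list sits furthest right at 3.81 and 3.23, and the tight junction list sits at -2.44 and -1.90.

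Genes of the mitotic machinery were low in both healthy bladders and high in both tumour bladders. Of 32 listed spindle and kinetochore genes 30 were measured, 29 passed the filter on low values and 29 were called higher, 26 of them at least 2-fold in both experiments. Of these 29, 13 lay under the filter value in both healthy arrays and passed through other arrays. Cdk1, the kinase that drives entry into mitosis, read 3.92 and 3.57 in the healthy arrays and 9.37 and 8.59 in the tumour arrays. Bub1, a kinase of the spindle checkpoint, rose by a mean of 5.15, and Cenpa, the histone that marks centromeres, by 4.69. Cep55, which acts in the final separation of daughter cells, rose from 3.66 and 3.34 to 9.63 and 8.92.

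Promoters of mitotic genes are textbook examples of control through CCAAT boxes and the cell cycle homology element, whose core is TTTGAA, so the bases before the start sites were searched on both strands in the RefSeq promoters of GRCm38.p6. Each motif was searched apart from the others, so matches of different motifs can share bases, and a match is a description of letters only. Of the 27 spindle and kinetochore genes with a promoter in that table, 21 (77.8%) held CCAAT within 250 bases before the start and 15 (55.6%) held it 2 or more times, against 37.5% and 11.5% of all 27025 genes. TTTGAA was in 7 of them (25.9%), against 18.3% of all genes. The last 150 bases before the start are shown for 4 members with several matches, chosen for those matches, all on the minus strand: Top2a at chr11:99024190-99024339, Cdk1 at chr10:69352913-69353062, Ccnb2 at chr9:70421555-70421704 and Cdca8 at chr4:124936918-124937067. Capitals mark CCAAT or TTTGAA in either orientation.
Top2a: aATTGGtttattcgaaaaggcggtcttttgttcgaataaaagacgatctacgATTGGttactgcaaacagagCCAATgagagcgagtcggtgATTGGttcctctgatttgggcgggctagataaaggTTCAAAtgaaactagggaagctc
Cdk1: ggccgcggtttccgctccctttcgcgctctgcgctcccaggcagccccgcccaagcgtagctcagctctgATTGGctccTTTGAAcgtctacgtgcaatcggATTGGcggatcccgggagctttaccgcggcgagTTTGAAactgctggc
Ccnb2: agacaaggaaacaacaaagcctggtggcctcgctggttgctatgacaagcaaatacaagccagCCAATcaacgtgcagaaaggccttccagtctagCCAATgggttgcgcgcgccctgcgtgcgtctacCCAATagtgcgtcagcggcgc
Cdca8: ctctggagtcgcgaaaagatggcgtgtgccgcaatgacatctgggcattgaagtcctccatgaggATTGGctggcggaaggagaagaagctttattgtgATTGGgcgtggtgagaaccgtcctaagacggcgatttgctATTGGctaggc

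All 4 of these genes were high in the tumour arrays. Ccnb2, a mitotic cyclin, read 3.68 and 4.04 in the healthy arrays against 8.76 and 7.85 in the tumour arrays. Cdca8, a subunit of the complex that corrects chromosome attachment, read 4.11 and 3.25 against 8.67 and 7.32. Top2a, which untangles DNA, rose by 6.16 in each experiment.

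Genes that repair and package DNA rose in part. Of 18 listed genes of repair by recombination 15 were measured, and 9 of the 11 above the filter were called higher, none lower, with 2 of the 9 under the filter value in both healthy arrays. Rad51ap1, which aids strand exchange, rose by a mean of 3.16, Brca1 by 2.90 and the nuclease Exo1 by 2.62, while Fancd2, a hub of crosslink repair, differed by 0.25 and was not called. In the list of chromatin factors of dividing cells 9 of 12 were called higher and none lower. Uhrf1, which guides maintenance methylation, read 4.54 and 3.82 in healthy and 9.28 and 8.11 in tumour bladders, and the chromatin remodeller Hells rose by 4.01. Hmga2, an architectural protein abundant in embryos and many tumours, rose from 4.74 and 4.45 to 8.81 and 8.38. The DNA methyltransferases did not move alike: the maintenance enzyme Dnmt1 rose by 1.97, and Dnmt3b, which sets new marks, differed by -0.12 and was not called.

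Genes of biosynthesis rose too. Of 19 ribosome biogenesis genes and MYC targets above the filter, 18 were called higher and none lower, with a median of 1.05 over the 20 measured, and 9 were called without the block. Myc itself read 7.83 and 7.65 in the healthy arrays and 9.39 and 9.21 in the tumour arrays. Odc1, the first enzyme of polyamine synthesis, rose by 2.40 and the nucleolar protein Nolc1 by 2.33. In the list of amino acid transport, serine synthesis and ATF4 targets 14 of 20 were called higher and 3 lower (10 called without the block). The leucine carrier Slc7a5 read 5.83 and 5.74 in healthy and 9.69 and 9.70 in tumour bladders, a mean difference of 3.91 (SE 0.09, adjusted p = 0.0024). The serine synthesis enzymes Phgdh, Psat1 and Psph rose by 2.92, 3.48 and 2.43, so that all 3 steps of the pathway were higher. Vldlr, a lipoprotein receptor, fell by 2.93.

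Most genes of mitochondrial respiration were not called. Of 27 oxidative phosphorylation genes above the filter 20 were not called, 1 was called higher (Cycs, cytochrome c, by 0.64) and 6 lower, and none reached 2-fold in both experiments. Without the block 0 were called. Ndufa4 differed most, by -1.05, with an adjusted p of 0.0612 in the fit without the block. Uqcrc1, a core subunit of complex III, read 10.23 and 9.90 in the healthy and 10.34 and 9.95 in the tumour arrays. The share called in this list, 7 of 27, was below the background of 57.2%. Pdk4, a kinase that holds pyruvate back from oxidation in mitochondria, was among the 15 largest falls of all genes, from 8.46 and 7.93 to 3.97 and 3.18.

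Markers of the urothelial surface were much lower in the tumour bladders. Of 10 umbrella and intermediate cell markers 9 were called lower, with Krt8 as the exception. Upk1b, a plaque protein, read 12.31 and 11.74 in the healthy arrays and 9.10 and 7.94 in the tumour arrays. Krt20, the keratin of umbrella cells, fell by 3.83 and Krt7 by 3.16. Krt8, the partner of Krt18 in simple epithelia, read 12.00 and 11.63 against 11.75 and 11.18 and was not called (difference -0.35, adjusted p = 0.0636), and Krt18 fell by 0.66 (not called without the block). In bulk tissue, fewer cells of a type and less RNA per cell cannot be told apart.

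Basal cell genes split. Krt14, a keratin of basal cells and of basal-type carcinoma, read 4.28 and 3.59 in the healthy bladders and 9.93 and 8.98 in the tumour bladders, a difference of 5.52 (SE 0.11, adjusted p = 0.0024, 45.9-fold). Its usual pairing partner Krt5 fell by 3.16, to 8.22 and 6.39, and Trp63, the transcription factor of basal cells, from 9.94 and 9.43 to 6.12 and 4.60. Krt15 fell by 2.26. The hyaluronan receptor Cd44 and the integrin subunit Itga6 rose by 3.11 and 2.08. Of the 6 measured basal markers 3 rose and 3 fell. The tumour and healthy arrays did not overlap in the values given here, which held for 53.0% of all genes.

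Most genes of the tight junction fell. Of 17 tight junction genes above the filter 12 were called lower and 1 higher, and the median over the 18 measured was -2.17. Claudins form the seal itself: Cldn8 read 10.56 and 10.08 in healthy and 6.00 and 4.86 in tumour bladders, Cldn7 fell by 3.38 and Cldn4 by 3.05. Cldn3 was the only member called higher, from 4.66 and 4.67 to 6.72 and 5.90. Cldn1 read 5.58 and 4.86 against 5.52 and 4.86 and was not called. The marvel-domain proteins that tie claudin strands together fell in all 3 cases, Ocln by 2.85, Marveld2 by 3.05 and Marveld3 by 4.04. The scaffold Tjp1 differed by -0.25 and was not called, while Tjp3 fell by 2.73.

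All 9 desmosome genes above the filter were called lower, 6 of them also without the block, and 3 of the 12 measured lay below the filter. The catenin Jup (-1.06) and the plakophilins Pkp1 (-0.83) and Pkp2 (-0.72) lost their calls without the block. Dsg2, the main desmosomal cadherin of simple epithelia, read 10.43 and 10.12 against 6.88 and 5.55. Its partner Dsc2 fell by 3.29, the linker Dsp by 3.38 and Perp by 3.58. Hemidesmosomes, which anchor basal cells to the basement membrane, did not share this direction. Both subunits of the laminin receptor were called higher, Itga6 from 8.99 and 8.79 to 11.14 and 10.79 and Itgb4 from 8.07 and 7.14 to 8.70 and 8.62, although Itgb4 lost its call without the block (adjusted p = 0.0612). Plec rose by 0.61, Lamb3 fell by 0.62 and Cd151 by 0.58, all 3 not called without the block. Col17a1 differed by -0.10 and was not called, and for Dst the deposited probe sets disagreed in direction.

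**Figure D3:**
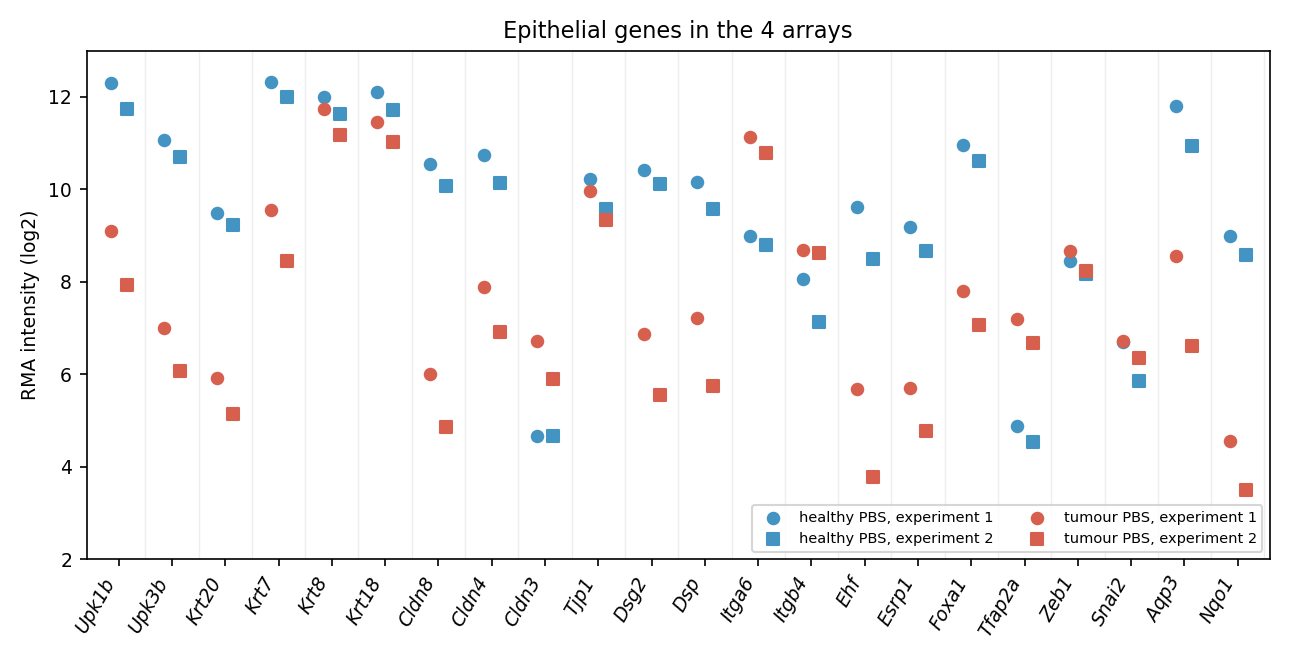
RMA intensity (log2) of 22 epithelial genes in the healthy (blue) and tumour (red) arrays of experiment 1 (circles) and experiment 2 (squares). Plaque proteins, claudins and desmosomal genes lie lower in both tumour arrays, Krt8, Tjp1 and Zeb1 nearly coincide within an experiment, and Cldn3, Itga6 and Tfap2a lie higher.

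The regulators of epithelial identity were lower as well. Of 19 above the filter 12 were called lower and 2 higher. Ehf, an ETS factor of stratified epithelia, read 9.62 and 8.50 in healthy and 5.69 and 3.79 in tumour bladders (difference -4.32, SE 0.23, adjusted p = 0.00277), and its relative Elf5 fell by 3.88. Esrp1 and Esrp2, which direct epithelial splicing, fell by 3.67 and 3.59, and Grhl1 fell by 3.61. Foxa1 and Gata3, factors of luminal urothelium, fell by 3.37 and 2.83. Tfap2a moved the other way, from 4.89 and 4.54 to 7.20 and 6.67. The factors that repress epithelial genes were not called: Zeb1 read 8.46 and 8.18 against 8.66 and 8.23, Snai1 4.05 and 4.11 against 4.04 and 3.78, Zeb2 differed by 0.29 and Snai2 by 0.26.

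Transport genes of the lining changed in both directions. Of 13 channels and transporters above the filter 7 were called lower and 2 higher. The potassium channel Kcnk1 read 10.19 and 9.82 against 5.98 and 4.74, and the water channel Aqp3 11.80 and 10.95 against 8.56 and 6.61. Scnn1g, a subunit of the epithelial sodium channel, fell by 2.28 and Scnn1b by 1.02, the second not called without the block. The chloride importer Slc12a2 rose by 2.74 and the stretch-gated channel Piezo1 by 1.66, while the related Piezo2 differed by -0.16 and was not called.

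Most detoxification enzymes fell. Of 24 above the filter 21 were called lower and 1 higher, with a median of -2.09 over the 26 measured. Nqo1, a quinone reductase, read 9.00 and 8.58 in the healthy and 4.55 and 3.51 in the tumour arrays (27.1-fold lower). The flavin monooxygenases Fmo5 and Fmo2 fell by 3.59 and 3.55, the cytochrome P450 Cyp2f2 by 3.29 and the alcohol dehydrogenase Adh1 by 3.23. The glutathione transferases differed among themselves: Gstm2 fell by 2.74 and Gsta4 by 2.86, Gstp1 at 11.71 and 11.28 against 11.50 and 10.96 was not called, nor was Gsto1. Among all genes the 15 largest falls also held Ugt2b34, a glucuronosyltransferase (difference -4.57), the aldehyde dehydrogenase Aldh1a7 (-4.54), and the sphingolipid enzymes Sptlc3 (-4.72) and Cers3 (-4.58).

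Retinoid genes changed in opposite ways. Retinol is oxidised to retinoic acid, which binds nuclear receptors. Crabp2, which carries retinoic acid to its receptor, read 4.94 and 3.92 in healthy and 8.64 and 8.31 in tumour bladders, and the retinol importer Stra6 3.71 and 3.98 against 6.38 and 6.83. The receptor Rara rose by 1.61 and its partner Rxra fell by 2.29, while Rxrb differed by 0.08 and was not called. Aldh1a1, which makes retinoic acid, fell by 3.53 and Dhrs3, which returns retinal to retinol, by 2.85. In all, 3 of 13 were called higher and 5 lower, a share in either direction close to the background of 57.2%.

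Secreted defence proteins were few above the filter, 7 of 15 measured. Defb1, the constitutive epithelial defensin, read 8.63 and 8.20 against 4.91 and 4.88, and Pigr, the transporter of IgA, fell by 1.16. Lyz2, the lysozyme of myeloid cells, rose by 1.62, while the protease inhibitor Slpi read 8.51 and 7.55 in healthy bladders, differed by 0.09 and was not called.

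The detrusor was represented by high values in all arrays and lower values in the tumour bladders. Of 17 contractile genes 16 were called lower and none higher, with a median of -1.71. Myh11, the smooth muscle myosin, read 11.82 and 11.54 in healthy and 9.87 and 9.42 in tumour bladders. The actin-anchoring proteins Pgm5, Ldb3 and Synpo2 fell by 2.66, 2.62 and 2.48, and Actg2 by 0.87 (not called without the block). Vcl, which links actin to adhesions in many cell types, read 10.20 and 9.39 against 10.19 and 9.39 and was not called. Of the 16 contractile genes with a promoter, 3 (18.8%), namely Myl9, Vcl and Ldb3, held a CArG box, the site of serum response factor, in the window of 250 bases, against 1.62% of all genes.

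Receptors and channels that control contraction were called lower in 6 of 11 cases and higher in none. Over all genes 28.6% were called lower and 57.2% in either direction. P2rx1, the ATP-gated channel through which bladder nerves excite the detrusor, read 9.31 and 9.08 against 6.24 and 5.95 (difference -3.10, SE 0.09, adjusted p = 0.0024). The prostaglandin receptor Ptger3 fell by 2.37, the calcium-activated potassium channel subunit Kcnmb1 by 1.84 and the L-type calcium channel Cacna1c by 1.46. Gucy1b1, a subunit of the nitric oxide receptor, differed by -0.12 and was not called, and the probe sets of its partner Gucy1a1 disagreed. Of the 15 measured genes 4 lay below the filter, among them the muscarinic receptor Chrm3 at 3.58 and 3.45 against 3.19 and 2.94.

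Genes named for nerve gave no single direction. Tubb3, a tubulin of neurons that many tumour lines also make, read 2.65 and 2.82 in healthy and 8.59 and 8.34 in tumour bladders, and Stmn2, a microtubule regulator, rose by 3.06. Uchl1 fell by 5.07 and the sodium channel Scn7a by 1.65. The glial marker Sox10 read 4.99 and 4.93 against 4.97 and 4.74 and was not called. In all, 4 of 8 were called higher and 3 lower, and 5 of the 13 measured lay below the filter. Of the 4 called higher, 2 lay under the filter value in both healthy arrays.

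Matrix genes were sorted by kind. Small proteoglycans and elastic fibre genes, products of resting fibroblasts, were called lower in 9 of 15 cases and higher in 1. Efemp1 read 9.60 and 9.15 against 6.44 and 4.98, Ogn fell by 2.70, Fbln1 by 1.97 and Dcn by 1.53, while elastin (Eln) rose by 1.34 and Bgn differed by -0.14 and was not called. Basement membrane genes were called higher in 7 of 13 cases and lower in 4 (7 called without the block). Nid1, which joins laminin to collagen IV, read 9.58 and 8.92 in healthy and 11.50 and 11.24 in tumour bladders, and Col18a1 rose by 2.06. The common collagen IV chains Col4a1 and Col4a2 rose by 0.91 and 1.24, the first not called without the block, and Col4a5 fell by 1.10. Agrn fell by 1.94.

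Among matricellular and hyaluronan genes 7 of 17 were called higher and 2 lower, and 5 were called without the block. The share called in either direction was close to the background of 57.2%. Vcan, a large hyaluronan-binding proteoglycan of provisional matrix, read 6.09 and 5.71 against 8.97 and 8.57. Has2, a hyaluronan synthase, rose by 2.16 and Tgfbi by 1.61. Fibronectin (Fn1) read 10.11 and 9.55 against 10.16 and 9.51 and was not called. Fibroblast markers were mixed: Dcn and Dpt fell by 1.53 and 2.32, and Col1a1, Col3a1 and Pdgfra were not called.

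The plasminogen system and its inhibitors rose in 7 of 10 cases, fell in 1, and the median over the 11 measured was 1.61. Timp1, an inhibitor of metalloproteinases, read 5.28 and 5.65 in healthy and 10.16 and 9.41 in tumour bladders, while Timp3 fell by 1.98 and Timp2 differed by 0.12 and was not called. Plaur, the urokinase receptor, rose by 3.39 and the activator Plat by 2.81. Both parts of the annexin A2 tetramer, which gathers plasminogen on cell surfaces, rose: S100a10 by 2.31 and Anxa2 by 1.61. Urokinase itself (Plau) read 3.94 and 3.73 against 5.41 and 3.86 and was not called. The collagenase Mmp13 was among the 15 largest rises of all genes, at 3.77 and 2.62 against 10.05 and 8.62.

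Integrins, the receptors of matrix and of vessel walls, were called higher in 11 of 17 cases and lower in 5. The leukocyte subunit Itgb2 read 6.33 and 5.88 against 10.22 and 9.77, and its partners Itgal, Itgax and Itgam rose by 3.80, 2.82 and 2.38. Itga3, a laminin receptor of epithelia and carcinomas, rose by 3.38. Itgb6, an epithelial subunit, fell by 1.98, Itgb3 by 2.09 and the collagen receptor subunit Itga1 by 1.43.

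Among hedgehog genes 5 of 10 were called lower and none higher (3 called without the block), and among WNT genes 7 of 18 were called lower and 3 higher. The share called in either direction was close to the background of 57.2% in both lists, and over all genes 28.6% were called lower. Shh, the hedgehog ligand of urothelial cells, read 7.41 and 6.73 in healthy and 3.92 and 4.31 in tumour bladders. The co-receptor Cdon fell by 2.46 and the receptor Ptch1, itself a target of the pathway, by 1.13. The pathway's transcription factors Gli1 and Gli2 fell by 0.38 and 0.86, neither called without the block. Smo, which passes the signal on, differed by -0.33 and was not called. Gli3, Hhip, Boc and Gas1 were not called either. Wnt5a read 10.10 and 9.52 against 6.59 and 5.58, the WNT enhancer Rspo1 fell by 2.97 and Wnt4 by 2.56. Wnt10a moved the other way, from 5.10 and 4.92 to 7.67 and 7.30. Axin2, a general target of WNT signalling, read 5.66 and 5.29 against 5.59 and 5.54 and was not called.

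In the TGF-beta and BMP family the ligands parted. Bmp2 read 9.70 and 8.83 in the healthy and 5.89 and 5.12 in the tumour arrays, a difference of -3.76 (SE 0.09, adjusted p = 0.0024), Bmp7 fell by 2.74 and Bmp4 by 2.23. The Id genes, direct targets of BMP signalling, all fell: Id1 by 2.35, Id2 by 1.45 and Id4 by 2.68, and Id3 fell by 2.27. The secreted antagonists Fst and Grem1 rose by 3.34 and 2.08. Tgfb1 read 6.04 and 5.46 against 8.14 and 8.33, and Ltbp1 and Ltbp2 of the same list rose by 1.41 and 3.37. The receptor Tgfbr2 differed by 0.09 and was not called. Of 22 genes 13 were called lower and 8 higher.

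Several EGF family ligands rose. Hbegf, a membrane-bound growth factor, read 4.99 and 4.97 in healthy and 9.72 and 9.63 in tumour bladders, a difference of 4.70 (SE 0.09, adjusted p = 0.0024, 25.9-fold). Btc rose by 3.16, Ereg by 2.83 and the ERBB3 ligand Nrg1 by 2.80, and the receptor Erbb3 rose by 1.09. Egf fell by 1.22 and Tgfa by 0.36, the second not called without the block. The receptor Egfr read 7.15 and 7.03 against 7.11 and 6.74 and was not called. In all, 7 of 13 were called higher and 3 lower (6 called without the block).

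Some vessel growth factors rose. Pgf, a relative of VEGF that binds VEGF receptor 1, read 5.20 and 4.15 against 7.80 and 6.96, Vegfc rose by 2.49 and Angptl4 by 2.66. Vegfa rose by 0.83 and was not called without the block, and Vegfd differed by 0.05. Esm1, a product of sprouting endothelium, rose by 1.99. The PDGF ligands did not move alike: Pdgfb rose by 1.15 and Pdgfd fell by 2.92. Most endothelial markers were not called: Pecam1, Vwf, Kdr and Emcn did not pass, and Cdh5 rose by 0.99 (not called without the block). The mean level of the 5 endothelial markers was 6.02 and 5.53 in healthy and 6.27 and 5.46 in tumour bladders. Of 19 vessel genes 9 were called higher and 3 lower, where 57.2% of all genes were called in either direction.

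Positional genes fell broadly. Hox genes keep a record of the body region a cell comes from. Of 34 listed 31 were measured and 21 passed the filter, of which 15 were called lower, 1 higher and 5 not called. Hoxb2 read 7.77 and 7.54 against 4.87 and 4.47, Hoxa10 9.37 and 8.82 against 6.85 and 6.17, and Hoxb3, Hoxb8 and Hoxd13 fell by 2.41, 2.45 and 2.07. Hoxb13 was the exception, rising from 4.78 and 4.15 to 6.05 and 5.03 (not called without the block). Hoxc9 read 4.97 and 4.92 against 4.93 and 4.71 and was not called.

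The circadian clock list held both directions at once. The clock runs on a loop in which Arntl and its partner Clock activate genes that later repress them, with Dbp, Tef and Hlf as output factors. Dbp read 8.62 and 8.04 in the healthy and 4.63 and 4.32 in the tumour arrays (difference -3.85, SE 0.12), Tef fell by 2.48, Hlf by 1.71 and the repressor Nr1d2 by 2.20. Arntl moved in reverse, from 5.04 and 5.13 to 7.26 and 7.24, and Nfil3, which opposes Dbp, from 5.07 and 4.41 to 7.16 and 6.04. Clock differed by -0.19 and was not called. All 8 lower and all 3 higher calls exceeded 2-fold in both experiments, out of 16 genes. The labels give no hour of day for any bladder, so the hour of sampling and the tumour cannot be told apart for these genes.

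In the list of steroid hormone receptors and response genes 3 of 11 were called higher and 2 lower, below the background share of 57.2%. The glucocorticoid receptor Nr3c1 rose by 0.87 (not called without the block) and its target Fkbp5 from 7.29 and 6.83 to 9.26 and 8.94, while the mineralocorticoid receptor Nr3c2 fell from 6.52 and 6.40 to 4.41 and 4.36. Tsc22d3, another glucocorticoid target, differed by -0.02 and was not called.

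**Figure D4:**
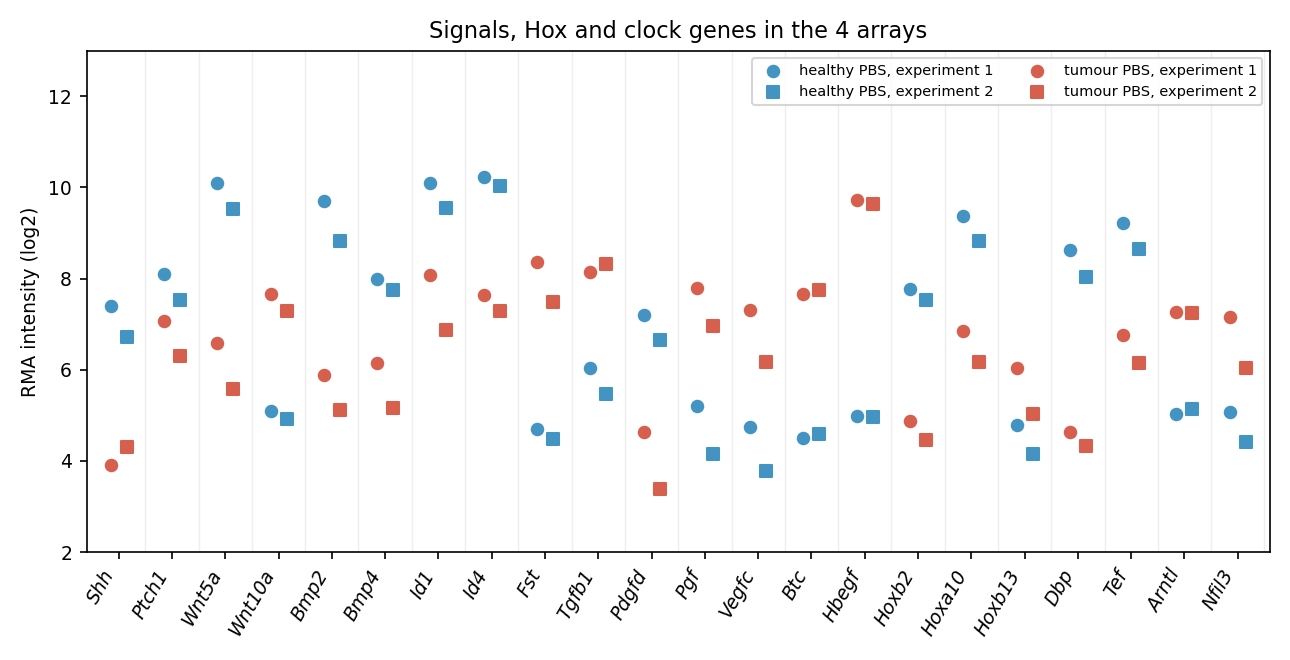
RMA intensity (log2) of 22 signalling, Hox and clock genes in the healthy (blue) and tumour (red) arrays of experiment 1 (circles) and experiment 2 (squares). Wnt5a, Bmp2, the Id genes, Hoxb2 and Dbp lie lower in both tumour arrays, and Hbegf, Fst, Tgfb1 and Arntl lie higher.

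Markers of macrophages and most markers of neutrophils rose. Some markers of lymphoid cells were called higher and none lower, and most mast cell markers were not called. All 5 macrophage markers were called higher, and their mean level was 6.76 and 5.97 in healthy and 9.00 and 8.23 in tumour bladders. Of the 4 measured neutrophil markers 3 were called higher, 1 of them under the filter value in both healthy arrays, and the chemokine receptor Cxcr2 was not (5.52 and 4.42 against 5.74 and 4.66). Of the 4 mast cell markers above the filter none was called higher and 1 lower: Kit, the stem cell factor receptor, fell by 0.81 (not called without the block), and Cpa3, a mast cell protease, differed by 0.09. Among lymphoid lists, 3 of 5 T cell markers were called higher, with Cd3g at 3.89 and 2.98 against 6.22 and 4.91, and Cd4 (4.63 and 3.87 against 4.61 and 3.90) and Cd8a not called. Cd3g lay under the filter value in both healthy arrays and was tested because other arrays were higher. Of the 5 NK cell markers 2 lay below the filter, and only Klrk1 was called (by 0.96, not without the block). Of the 4 measured B cell and plasma cell markers 3 lay below the filter, and Cd79a read 4.49 and 4.18 against 4.86 and 4.22.

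Chemokines guide the movement of these cells. Of 19 CC chemokines and receptors above the filter 13 were called higher and none lower, and 4 of the 13 lay under the filter value in both healthy arrays. Ccl24, an attractant of eosinophils, read 4.89 and 4.60 in healthy and 10.10 and 9.00 in tumour bladders, the monocyte attractants Ccl2 and Ccl12 rose by 5.33 and 5.11, and their receptor Ccr2 by 1.52. Ccr1 read 3.07 and 3.41 against 8.64 and 8.03. The epithelial chemokines Ccl20 and Ccl28 were not called, nor were Ccl17, Ccl19 and Ccl22, which act on dendritic cells and T cells. In the CXC and CX3C list 11 of 19 were called higher and 2 lower, and 4 of the 11 lay under the filter value in both healthy arrays. Cxcl9 and Cxcl10, induced by interferon, rose by 5.97 and 5.67, and their receptor Cxcr3 was not called (4.32 and 3.98 against 5.54 and 4.43). Cxcl12, a constitutive product of stroma, fell from 9.32 and 9.29 to 8.09 and 7.28, while its scavenger receptor Ackr3 rose by 1.42.

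Interferon-stimulated genes were called higher in 20 of 23 cases and lower in 1, with a median of 1.94 over the 24 measured. Zbp1, a nucleic acid sensor, read 4.44 and 4.12 against 8.52 and 7.60, and the immunoproteasome subunits Psmb8 and Psmb9 rose by 2.71 and 2.81. Rsad2 read 6.15 and 5.59 against 8.70 and 8.17, and Ifit1 4.83 and 4.25 against 7.19 and 6.30. Usp18, which dampens interferon signalling, fell by 0.78 and was not called without the block, and Mx2 and Oas2 were not called. Interferon response elements share a core of GAAA repeated after NN. It was found on either strand in 12 of the 24 listed genes with a promoter (50%), against 3.46% of all genes. The last 150 bases before the start are shown for 2 of them, Ifit1 at chr19:34640739-34640888 on the plus strand and Rsad2 at chr12:26456453-26456602 on the minus strand, with matches to the core in either orientation in capitals.
Ifit1: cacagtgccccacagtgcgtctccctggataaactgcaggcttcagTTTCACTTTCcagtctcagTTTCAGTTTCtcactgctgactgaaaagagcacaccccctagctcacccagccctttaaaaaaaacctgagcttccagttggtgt
Rsad2: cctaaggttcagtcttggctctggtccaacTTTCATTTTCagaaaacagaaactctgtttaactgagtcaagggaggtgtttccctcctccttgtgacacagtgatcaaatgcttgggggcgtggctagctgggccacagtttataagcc

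Most receptors that sense microbes and damage rose. Of 22 pattern recognition genes 18 were called higher and 1 lower (12 called without the block). Of the 18, 3 lay under the filter value in both healthy arrays. The C-type lectins Clec4n and Clec7a, receptors for fungal sugars, read 4.84 and 4.85 against 9.74 and 8.79, and 5.99 and 6.31 against 10.22 and 9.62. Casp1 rose by 3.50, whereas Pycard, the adaptor that recruits it, fell by 0.70 (not called without the block). Toll-like receptors differed: Tlr1 rose by 3.50, Tlr4 by 1.11, and Tlr3 (7.58 and 7.10 against 7.36 and 6.71) and Tlr9 were not called.

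Complement and Fc receptor genes were called higher in 12 of 16 cases and lower in 1, and all 13 calls held without the block. Fcgr1, the high-affinity IgG receptor, read 4.07 and 3.45 in healthy and 8.48 and 7.56 in tumour bladders, Fcgr4 rose by 3.99 and the inhibitory Fcgr2b by 3.66. The 3 chains of C1q, made by macrophages, rose by 2.89, 3.15 and 3.08, while the proteases that bind C1q, C1ra and C1s1, and C4b were not called and C2 fell by 1.58.

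Macrophage state genes did not all follow the macrophage markers. In the resident-type list 3 of 10 were called higher and 3 lower, close to the 28.6% called each way over all genes. Mrc1, the mannose receptor, rose by 2.07 and Stab1 by 1.22, Cbr2 fell from 10.91 and 10.15 to 7.68 and 6.67, and Lyve1, shared with lymphatic endothelium, by 1.86. Folr2 and F13a1 differed by -0.01 and 0.04 and were not called. In the activated list 8 of 14 were called higher and 4 lower (7 called without the block). Of the 8, 3 lay under the filter value in both healthy arrays. Arg1 read 3.61 and 3.18 against 8.64 and 7.93, Chil3 rose by 3.25 and Mmp12 by 3.52. Retnla, which is usually listed beside Arg1 and Chil3 as a product of alternative activation, fell from 9.29 and 8.29 to 7.06 and 7.01. Nos2, the enzyme of classical activation, rose by 0.44 and was not called without the block.

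Checkpoint and costimulation genes were called higher in 12 of 14 cases and lower in none, 8 of them without the block. Of the 12, 2 lay under the filter value in both healthy arrays. Cd274 (PD-L1) read 5.31 and 5.32 against 7.88 and 7.13, Ido1, which degrades tryptophan, 3.43 and 3.33 against 6.94 and 5.67, and Havcr2 (TIM-3) rose by 2.74. Genes of activated T cells differed among themselves. The costimulatory receptor Tnfrsf9 (4-1BB) read 5.55 and 5.38 against 7.53 and 7.07, and Lag3 rose by 0.44 (not called without the block). Pdcd1 (PD-1) at 3.41 and 3.24 against 4.37 and 3.47, Ctla4, Il2ra and Foxp3 lay below the filter, and Icos read 5.08 and 5.36 against 4.94 and 5.54 and was not called.

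Granzymes divided by gene. Of 10 cytotoxic genes above the filter 8 were called higher and none lower, with 4 of the 8 under the filter value in both healthy arrays and 6 of the 16 measured below the filter. Gzmd, a member of the cluster induced late in activated mouse killer cells, read 2.42 and 2.33 against 7.87 and 6.52 (28.2-fold), and its neighbours Gzme and Gzmg rose by 3.35 and 3.67. These genes are close paralogues, so probe sets may not separate them. Gzmb rose by 3.31 and Gzma by 2.42, while Gzmm (4.48 and 4.51 against 4.48 and 4.62) and Gzmk were not called. The pore protein Prf1 lay below the filter, with a mean difference of 1.14 from 3.54 and 3.35 in the healthy arrays.

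Lipid mediators changed at both ends of the pathway. Ptgs2, the inducible cyclooxygenase, read 5.58 and 4.60 in healthy and 8.06 and 6.91 in tumour bladders, and the PGE2 synthase Ptges rose to 8.09 and 7.80 from 6.50 and 6.38. Hpgd, which inactivates prostaglandins, fell from 9.07 and 8.57 to 5.31 and 4.38. Alox5ap and Ltc4s of the leukotriene arm rose by 2.13 and 1.70, and Alox5 was not called (4.70 and 5.03 against 5.17 and 4.91). In all, 7 of 17 were called higher and 4 lower. Iron genes were called higher in 6 of 15 cases and lower in 3. Over all genes 57.2% were called in either direction, and the iron list was close to that share. Hmox1, which breaks down haem, rose by 3.35, the ferroxidase Cp by 3.30 and the importer Slc39a14 by 2.85, transferrin (Trf) fell by 1.68, and the transferrin receptor Tfrc was not called.

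**Figure D5:**
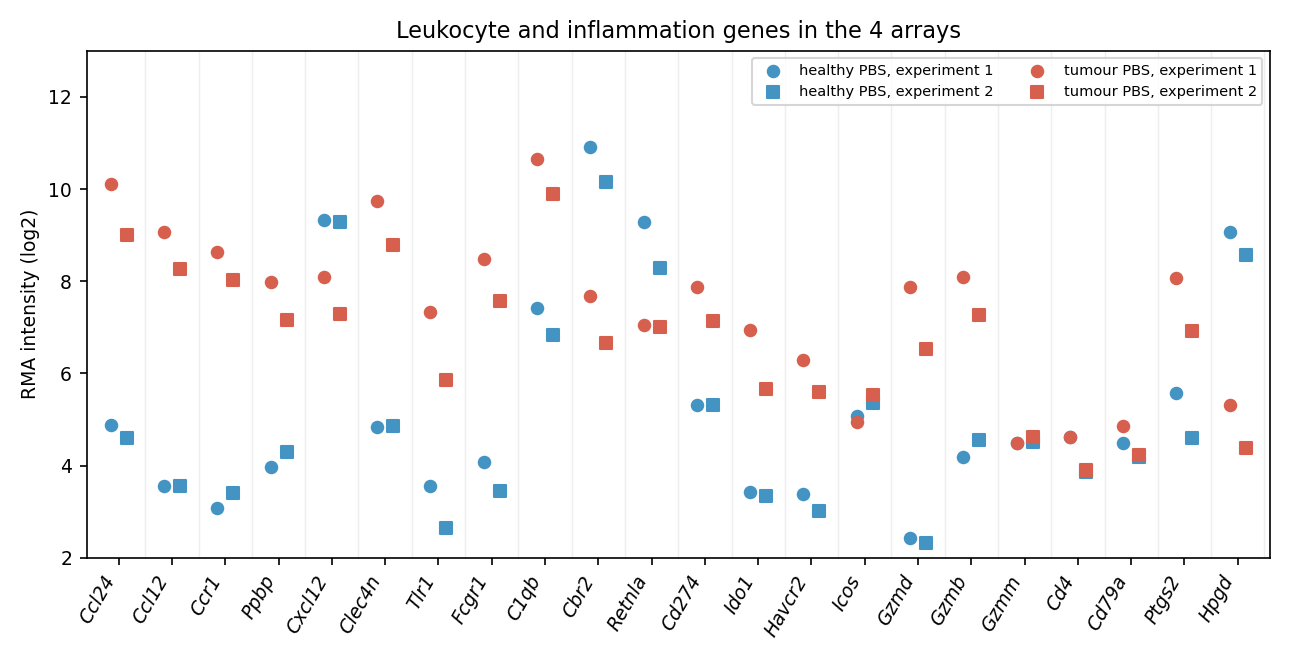
RMA intensity (log2) of 22 leukocyte and inflammation genes in the healthy (blue) and tumour (red) arrays of experiment 1 (circles) and experiment 2 (squares). Chemokines, Clec4n, Fcgr1 and Gzmd lie several log2 units higher in both tumour arrays, Icos, Gzmm, Cd4 and Cd79a overlap, and Cxcl12, Cbr2, Retnla and Hpgd lie lower.

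Markers of neighbouring tissue and of sex also differed between the groups, and their part in the results was not tested. Of 10 measured kidney tubule markers 2 were called lower and 6 lay below the filter: Kap read 9.61 and 9.32 against 5.97 and 6.07, Miox 6.55 and 6.40 against 3.37 and 3.45, and Umod, below the filter, 7.10 and 6.42 against 2.76 and 3.34. The mean kidney level was 5.52 and 5.21 in healthy and 3.91 and 3.88 in tumour bladders, while Cubn, a defining tubule gene, read 4.80 and 4.47 against 4.73 and 4.41. Of 7 liver markers only Ttr was called, at 8.91 and 8.78 against 4.84 and 4.48, and Alb was low in all arrays (4.57 and 3.85 against 4.04 and 3.78). Mesothelial genes fell in 3 of 4 cases, Gpm6a by 4.30, whereas Msln, also made by many carcinomas, rose by 3.43. The 3 include Upk3b, which was also counted among the umbrella cell markers. Adipocyte genes Fabp4 and Adipoq fell by 2.31 and 1.86. Among erythroid genes Alas2 rose by 2.26, Slc4a1 by 1.56 and Hba-a1 by 0.58, the last not called without the block. Sprr2f, listed for the female reproductive tract, rose by 3.25. Xist fell from 10.32 and 10.22 to 9.15 and 8.97, and the Y-linked Eif2s3y, below the filter, read 2.09 and 2.32 against 3.45 and 3.18, with Kdm5d and Uty between 2.95 and 3.53 in every array.

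Some of the largest rises lay outside the lists. AA467197, whose human counterpart is a small mitochondrial protein, had the largest mean difference of all genes called, from 3.22 and 3.03 to 10.22 and 9.26 (6.62, SE 0.23, adjusted p = 0.0024). Upp1, which splits uridine, read 4.99 and 4.57 against 10.83 and 10.20. Ott and Gm4836, both on the X chromosome, read 2.63 and 2.58 against 8.87 and 8.34, and 2.65 and 2.51 against 8.61 and 8.31. Among the largest falls were Slc16a12, a carrier of creatine (9.25 and 8.39 against 4.92 and 3.59), Wfdc15b (10.42 and 10.04 against 5.92 and 5.32) and Tlcd4 (8.48 and 8.29 against 4.13 and 3.64). No overlap between tumour and healthy arrays was a condition for choosing these genes.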

How the data were processed

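The values are the authors' deposited log2 intensities of an Affymetrix mouse PM array, which the submitters' processing notes credit to RMA and to Transcriptome Analysis Console 4.0.1.36. The genome build is not given in the sources used here. Per the labels, RNA came from pulverised frozen bladder. The experiments were normalized apart: sorted array values deviated by 0.022 within and differed by 0.329 between them. Differences were therefore taken within each experiment, with the experiment as a block. Same-numbered arrays deviated from their group means together (correlation 0.647), and the labels give the number as the experiment.

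Of 45077 probe sets 28898 name 1 gene in the annotation supplied with the array, 551 several and 15588 none, 40 controls were dropped, and the Entrez number linked 28689 to GRCm38.p6 gene names. The probe set with the highest mean was used for the 7180 of 17097 genes with several. Genes with a mean over the 9 arrays under 4.16, the lowest 30%, were not tested. limma 3.58.1 in R 4.3.3 was used (1 residual and 2.23 prior degrees of freedom), checked on simulated data, with Python 3.11.15.

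Members and lists were chosen with earlier results of these data known. Genes named are up to 5 called members of each list with the largest difference and no overlap of groups, up to 2 uncalled ones with the smallest, the 15 largest rises and falls, 10 genes of opposite sign, marker genes and members of a family already named. The genes Ackr3, Alox5, Boc, C2, Ccl17, Ccl19, Ccl22, Ccl28, Ccnb2, Cdca8, Chrm3, Cxcl12, Cycs, Eln, Foxa1, Gata3, Gli3, Gsta4, Gstm2, Hlf, Hoxb13, Ifit1, Jup, Lag3, Nfil3, Nos2, Pkp1, Pkp2, Pycard, Retnla, Snai2, Tfap2a, Tfrc, Timp3, Tjp1, Tjp3, Tnfrsf9, Trf, Tsc22d3, Usp18 and Zeb2 were chosen after their values were seen. The alternatives were no block, joint quantile normalization, a variance trend, the mean of probe sets, other filters, other fold limits and leaving out arrays or an experiment.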

Additional observations from a re-analysis of the deposited data

Results flagged for a closer look

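Differences of opposite sign in the experiments, taken from the 10 genes above the filter where the smaller of the opposed differences was largest, were found as follows; whether the experiments differ was not tested, and none of the genes was called. The experiments differed by 2.72 for Akap9, an anchor of signalling enzymes at the centrosome, because the healthy array of experiment 2 read 3.24 and the other 3 arrays 5.32 to 5.74. For Trim2, a ubiquitin ligase, the gap was 2.01, and for Zbtb7a, a transcriptional repressor, 1.91, with the healthy array of experiment 2 again the lowest (4.28 and 5.44). Igf1, a growth factor of stroma, differed by 0.41 in experiment 1 and -0.42 in experiment 2, a gap of 0.83. The gaps of the other genes were 1.13 for Ankrd12, 1.06 for Pisd-ps3, 0.97 for Tle5, 0.93 for 3830417A13Rik, 0.83 for Lrsam1 and 0.82 for Ankhd1. The healthy array of experiment 2 was also the lowest for Ankrd12 (6.50), Pisd-ps3 (5.66), Tle5 (8.02), Lrsam1 (5.19) and Ankhd1 (6.73). It was not the lowest for Igf1 and 3830417A13Rik. The experiments were normalized apart, and the part of this array was not tested.

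Probe sets with no gene name were not part of the comparison by gene. Of 5550 above the filter, 1165 were called higher and 1124 lower in the tumour bladders, 492 and 486 of them at least 2-fold in both experiments.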

How the results depend on the processing

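The fit without the block, in which the experiment number does not pair the arrays, called 3172 genes (1538 higher, 1634 lower) in place of 6852, and 3157 of the 3172 were among the 6852. Leaving out each array from that fit gave 2230 to 2807 genes: 2277 (1383 higher, 894 lower) without the healthy array of experiment 1, 2586 (894 and 1692) without its tumour array, 2230 (806 and 1424) without the healthy array of experiment 2 and 2807 (1747 and 1060) without its tumour array. There the lone array of a group is assumed to vary like the others, the groups differ in experiment, the experiments were normalized apart, and the median over all genes moved to between -0.21 and 0.21. With the block, leaving out an array leaves 1 experiment and no test. Single experiments held 1686 to 1788 higher and 1794 to 1809 lower genes at 2-fold. Called genes at least 2-fold different numbered 3501 (1705 higher, 1796 lower). Changed the same way in both experiments were 2460 higher and 2467 lower genes at 1.5-fold, and 537 and 562 at 4-fold. Joint quantile normalization, a variance trend, the mean of probe sets and other filters gave 5615 to 7489 calls. Of 404 genes examined singly, 23 lost their call without the block and 1 gained one. Itgb4 lost its call without the filter, Gli1 with a variance trend, and Cdh5, Cycs, Tgfa and Thra with the mean of probe sets. Of the same 404, 17 gained a call with joint quantile normalization, 10 with the trend, 10 with the mean of probe sets and 3 with the lowest 50% left out, among them Cxcr3 and C1s1 (both in 3 or more of these), Krt8, Cd8a, Kdr, Pdgfra, Tfrc and Zeb2, so their lack of a call rests on the setting. With that mean Dst (-1.38), Gucy1a1 (-0.72) and Hhip (0.67) changed sign, and Tgfa (0.01) did so without the block and the healthy array of experiment 1. The cause was not tested. The lowest values of the compared arrays were 1.97 to 2.2 log2, and the filter value of 4.16 lay close to their medians. Differences of genes with low values may be understated, which was not tested.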
